A study of Rattus norvegicus with 4 samples.

Results

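The carboxylesterases and the microsomal epoxide hydrolase of the rat liver were examined as a set of 10 genes: *Ces1c*, *Ces1d*, *Ces1e*, *Ces1f*, *Ces2a*, *Ces2c*, *Ces2e*, *Ces2g*, *Ces2h*, and *Ephx1*. The genes were chosen by symbol, and all 10 were found among the 16982 genes listed in all 4 deposited tables. Liver RNA of 4 wild-type male Wistar rats, 6 weeks old when purchased, from the left lateral lobe, was sequenced, 1 animal per condition. The rats inhaled either 4.5% sevoflurane or 6% desflurane in 50% oxygen for 6 hours, or were sacrificed as a control once the same agent had caused loss of consciousness, which took less than 1 minute. Food and water had been withheld from all rats, controls included, for 2 hours beforehand. Time without food and time under anesthesia therefore differed together between the 6 hour and control rats and cannot be told apart. Each condition has 1 library, so no difference could be set against a spread between replicates and no test was made.

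Carboxylesterases are serine hydrolases that cleave esters, amides, and thioesters in the endoplasmic reticulum of hepatocytes, and they activate or inactivate many ester drugs and prodrugs. Enzymes of the Ces1 group prefer substrates with a bulky acyl group, whereas those of the Ces2 group prefer a small acyl group and a bulky alcohol. *Ephx1* encodes the microsomal epoxide hydrolase, which adds water to reactive epoxides such as those formed by cytochrome P450 enzymes. Genes of both kinds are counted among those that respond to foreign compounds through the nuclear receptors CAR and PXR and, for *Ephx1*, also through NRF2.

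The sequences before the start sites of *Ces2c* and *Ephx1* are shown because these genes, described below, gave the largest difference from the controls and the largest difference between the agents within the set. They are the 250 bases before each start site, 5′ to 3′ on the strand of the gene, taken from RefSeq on the GRCr8 build, whereas the files use rn6. RefSeq windows were found for 9 of the 10 genes, all but *Ces2a*, and *Ephx1* had windows for 2 start sites. Capitals mark matches on either strand to AGTTCA or AGGTCA, half-sites of nuclear receptor elements, or to TGACNNNGC, the core of the antioxidant response element.

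Ces2c, chr1:270376951-270377200, plus strand: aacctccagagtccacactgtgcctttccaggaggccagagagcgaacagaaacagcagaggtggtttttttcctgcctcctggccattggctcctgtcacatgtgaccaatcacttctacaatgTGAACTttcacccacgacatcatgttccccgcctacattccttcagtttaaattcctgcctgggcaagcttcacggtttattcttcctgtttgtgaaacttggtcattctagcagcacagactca
Ephx1, first start site, chr13:95275853-95276102, minus strand: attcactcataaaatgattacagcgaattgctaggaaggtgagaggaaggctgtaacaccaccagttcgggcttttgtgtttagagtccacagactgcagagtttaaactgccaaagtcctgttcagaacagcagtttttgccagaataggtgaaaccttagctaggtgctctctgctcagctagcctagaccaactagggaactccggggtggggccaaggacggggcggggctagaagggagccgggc
Ephx1, second start site, chr13:95263118-95263367, minus strand: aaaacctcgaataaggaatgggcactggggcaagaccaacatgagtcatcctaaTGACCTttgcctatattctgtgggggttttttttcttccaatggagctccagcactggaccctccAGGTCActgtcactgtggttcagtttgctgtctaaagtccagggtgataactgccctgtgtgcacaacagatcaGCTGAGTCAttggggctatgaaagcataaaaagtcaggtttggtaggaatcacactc

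The *Ces2c* window held 1 match to AGTTCA, on the strand opposite to the gene and beginning 125 bases before the start. The first *Ephx1* window held no match, and the second held 2 matches to AGGTCA and 1 to TGACNNNGC. In windows that also covered 50 bases after the start, AGTTCA was found in 4 of the 9 genes with a window (*Ces1c*, *Ces1e*, *Ces2c*, and *Ces2h*), AGGTCA in 2 (*Ces2h* and *Ephx1*), and TGACNNNGC in 2 (*Ces2g* and *Ephx1*). Of 33469 rat promoter windows of this length, 14.5%, 16.2%, and 12.1% held these motifs. A match describes letters and does not show binding.

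The set covered a wide range of transcript levels, given here as TPM values, which are scaled for transcript length and library size. *Ces1c*, which encodes a carboxylesterase secreted into plasma, and *Ephx1* were the most abundant, with mean TPM values over the 4 libraries of 1149 and 1086. *Ces1d* (399), *Ces2e* (238), *Ces1f* (219.8), *Ces1e* (106), *Ces2a* (77.6), and *Ces2h* (53.3) followed. *Ces2c* (21.8) and *Ces2g* (17.6) were lowest, and they exchanged places because *Ces2g* had the higher TPM value in both controls and *Ces2c* in both 6 hour libraries. All 10 genes had TPM values higher than 2 in every library. The average coverage per base, the only measure of depth in the files, was between 18.0 for *Ces2c* in the desflurane control and 2436 for *Ephx1* in the same library. *Ces1c* alone gave between 46.0% and 53.4% of the summed TPM of the 9 carboxylesterases. The files give no read counts, so counting intervals were not calculated.

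**Figure D1:**
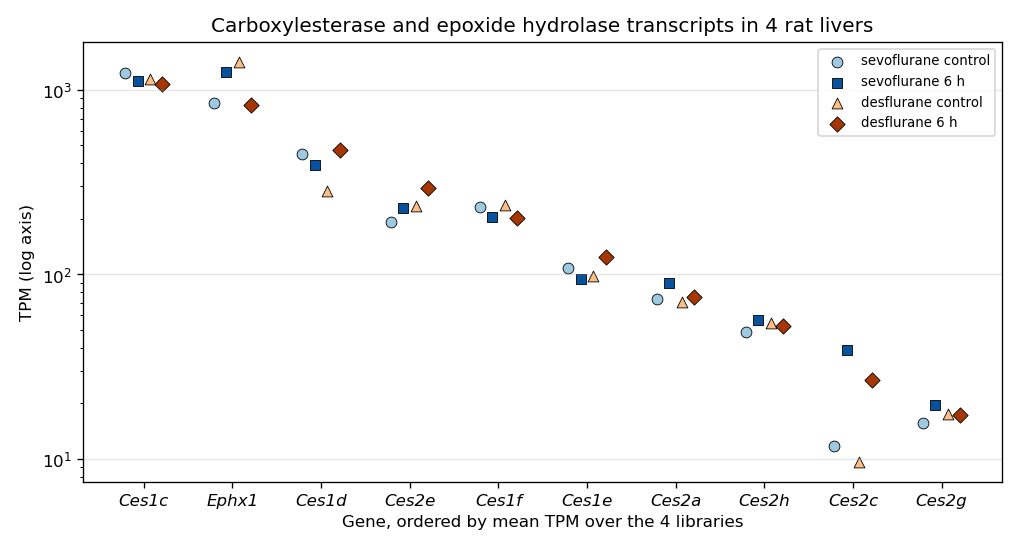
TPM value (log axis) of each of the 10 genes in each of the 4 libraries, with 1 point per library and no error bars because each condition has 1 rat. *Ces2c* is the only gene in which both 6 hour libraries stand more than 2-fold above both controls, and *Ephx1* and *Ces1d* differ most between the controls.

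The question of the design was whether each agent changed expression after 6 hours. Genes were called upregulated or downregulated by the rule of the study: a TPM value higher than 2 in the higher state and a difference of more than 2-fold. Each 6 hour library was set against its own control and also against the control of the other agent. These 4 comparisons share libraries and are not independent. *Ces2c* was upregulated in all 4, and the other 9 genes passed in none, in either direction. Sevoflurane thus upregulated 1 of the 10 genes, where 2.23% of genes passed against its own control and 2.52% against the other control. Desflurane also upregulated 1 of the 10, where 2.79% and 2.84% passed. None of the 10 genes was downregulated, where 3.3% and 2.59% of genes passed with sevoflurane and 1.48% and 1.58% with desflurane. Of 9993 genes with a TPM value higher than 2 in any library, 49 (0.49%) were upregulated in all 4 comparisons and 0.25% were downregulated in all 4. Since the 10 genes are abundant, the shares were also taken over genes with a mean TPM value above 10 in the pair. Upregulated genes then made up 1.52% with sevoflurane and 2.24% with desflurane against the own controls, and 2.06% and 1.65% against the other controls. Downregulated genes made up 1.82% and 1.12% against the own controls, and 1.62% and 1.14% against the other controls.

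*Ces2c* encodes a Ces2 enzyme of the endoplasmic reticulum, and the paper already lists it among the genes activated by both agents in these libraries. Its TPM values were 11.8 (control) and 38.9 (6 hours) in the sevoflurane pair, and 9.62 (control) and 26.7 (6 hours) in the desflurane pair. Both 6 hour livers were above both controls, and the sevoflurane liver was highest. The fold change against the own control was 3.29 with sevoflurane and 2.78 with desflurane. Against the control of the other agent, the fold changes were 4.04 and 2.26. The controls differed from each other by 1.23-fold, and the sevoflurane library was 1.46-fold above the desflurane library at 6 hours. The lowest of the 4 fold changes did not hold the 2-fold limit when FPKM replaced TPM, which gave 1.89.

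The files hold *Ces2c* as 2 rows on the plus strand of chromosome 1 in rn6, chr1:282640752-282648318 and chr1:282678150-282685716, each spanning 7567 bp and separated by 29831 bp. On GRCr8, RefSeq lists *Ces2c* and a pseudogene, *Ces2c-ps1*, on this chromosome. Reads from near-identical copies could have been split between the rows, so the summed value was used. The TPM values of the first row were 4.46, 17.0, 4.57, and 11.5, in the order sevoflurane control, sevoflurane, desflurane control, and desflurane. The second row had values of 7.38, 21.9, 5.06, and 15.2. Each row was therefore higher in both 6 hour livers, by 3.82-fold and 2.97-fold with sevoflurane and by 2.53-fold and 3.0-fold with desflurane against the own controls. A nearby row named *Ces2*, not one of the 10 genes, stayed below 2 TPM, with values of 0.156, 1.37, 0.262, and 1.41 in the same order.

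**Figure D2:**
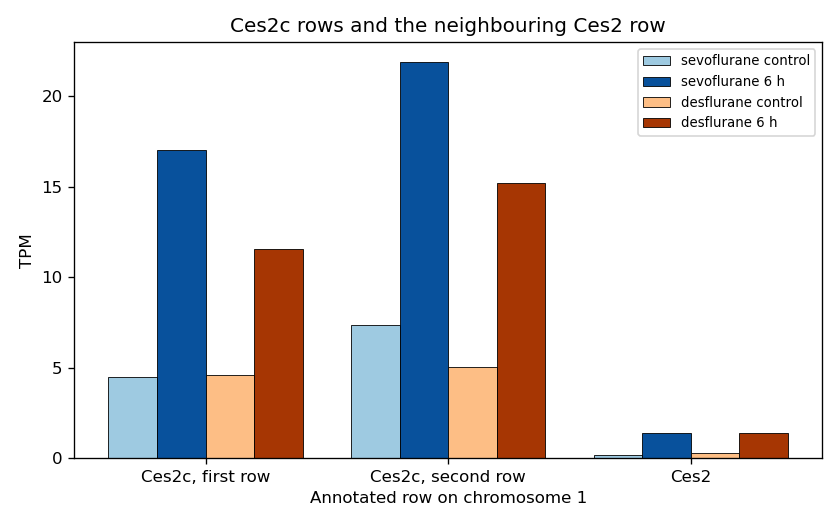
TPM value of the 2 *Ces2c* rows and of the neighbouring *Ces2* row on chromosome 1, with 1 bar per library. In both *Ces2c* rows the 6 hour bars (11.5 to 21.9) stand above all control bars (4.46 to 7.38).

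The most similar patterns to *Ces2c* were sought among 9126 other genes that passed a TPM value of 2 in every library, by the Euclidean distance of log2 TPM values centered over the 4 libraries. *Unc5b*, a netrin receptor gene, was nearest at a distance of 0.0759, with TPM values of 2.69, 8.88, 2.15, and 5.71 in the order given above. *Gpd1l* (0.239) and *LOC684871* (0.275) came next. Only 4 libraries fix such a pattern only loosely.

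The other genes of the Ces2 group varied less. They lie on the plus strand of chromosome 19 in rn6, *Ces2e* at chr19:85679-100386, *Ces2a* at chr19:487710-511672, *Ces2g* at chr19:37025379-37032968, and *Ces2h* at chr19:37052576-37067176. *Ces2e* had TPM values of 192 (control) and 229.6 (6 hours) in the sevoflurane pair, and 235 and 296 in the desflurane pair. The desflurane liver was highest, and the sevoflurane liver lay between the controls. Its fold changes were 1.20 with sevoflurane and 1.26 with desflurane against the own controls, and 0.975 and 1.54 against the other controls. *Ces2a* had values of 73.5, 90.3, 71.0, and 75.5 in the same order, so that both 6 hour livers were above both controls, desflurane by as little as 1.03-fold against the sevoflurane control. After median-of-ratios scaling, this small difference with desflurane changed direction against both controls. RefSeq lists *Ces2a* as a transcribed pseudogene on GRCr8.

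*Ces2g* had TPM values of 15.8, 19.5, 17.6, and 17.3, and *Ces2h* had values of 49.1, 56.9, 54.7, and 52.5, again in the order sevoflurane control, sevoflurane, desflurane control, and desflurane. For both genes the lowest value was in the sevoflurane control and the highest in the sevoflurane liver, and the ratio of highest to lowest was 1.24 and 1.16. The summed TPM of the 5 Ces2 genes was 342, 435, 388, and 468, which corresponds to 1.27-fold with sevoflurane and 1.21-fold with desflurane against the own controls. *Ces2c* made up 3.46% and 2.48% of this sum in the controls and 8.94% and 5.71% after sevoflurane and desflurane.

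The Ces1 genes lie side by side on chromosome 19 in rn6, from *Ces1f* (chr19:15081576-15126622) through *Ces1e* (chr19:15139716-15239583) and *Ces1d* (chr19:15195514-15239824) to *Ces1c* (chr19:15294539-15335004), all on the plus strand. The spans of *Ces1d* and *Ces1e* overlap on the same strand, so their separate values are uncertain. Those of *Ces1c* and *Ces1f* overlap no other of the 10 genes. *Cesl1*, which is not one of the 10, covers the place of *Ces1f*, so the value of *Ces1f* is uncertain too, and the *Cesl1* TPM value was between 0.957 and 0.959 of that of *Ces1f* in all 4 libraries.

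*Ces1d* encodes an enzyme that hydrolyzes stored triacylglycerol in hepatocytes. Its TPM values were 449 (control) and 391 (6 hours) in the sevoflurane pair, and 282 and 475 in the desflurane pair. The desflurane control stood apart as the lowest, and the remaining values were closer together. *Ces1d* was 1.69-fold higher with desflurane against its own control but 1.06-fold against the sevoflurane control, a difference that changed direction after median-of-ratios scaling. With sevoflurane it was 0.872 of its own control and 1.39-fold higher than the other control. All 4 directions of *Ces1d* turned when assembled rows were added, with a log2 change of -1.19 in place of 0.75 for desflurane against its own control. Those rows count the same reads again. In the sevoflurane 6 hour and desflurane control libraries, an assembled row also ran on through *Ces1c*, with 1341 and 1300 TPM. The turned values are therefore not values of *Ces1d* alone.

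*Ces1e*, known as egasyn for its binding of beta-glucuronidase in the endoplasmic reticulum, had TPM values of 108, 95.0, 97.7, and 125 in the order sevoflurane control, sevoflurane, desflurane control, and desflurane. The desflurane liver was highest and the other values overlapped, with fold changes of 1.28 and 1.15 for desflurane against its own and the other control. The TPM ratio of *Ces1e* to *Ces1d* was 0.241, 0.243, 0.347, and 0.262 in the same order. The ratio was highest in the desflurane control, where *Ces1d* was lowest.

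*Ces1c* and *Ces1f* were slightly lower in both 6 hour livers than in both controls. *Ces1c* had TPM values of 1238, 1124, 1151, and 1082, and *Ces1f* had values of 233, 206, 238, and 202, in the order given above. The fold changes of *Ces1c* were 0.907 with sevoflurane and 0.939 with desflurane against the own controls, and those of *Ces1f* were 0.884 and 0.852. For *Ces1c* with sevoflurane against the desflurane control, the log2 change of -0.04 turned to 0.09 with FPKM and to 0.01 with assembled rows added. Separation of both 6 hour livers from both controls, of any size, was common: 33.3% of the 9993 genes were higher in both and 13.3% were lower in both. Among the 10 genes, 2 were higher (*Ces2a* and *Ces2c*) and 2 were lower (*Ces1c* and *Ces1f*). The summed TPM of the 4 Ces1 genes was 2029, 1816, 1768, and 1884.

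*Ephx1*, at chr13:99271390-99300580 on the minus strand in rn6, had TPM values of 852 (control) and 1252 (6 hours) in the sevoflurane pair, and 1410.0 and 829 in the desflurane pair. The highest value was in one control and a low value in the other, so the 6 hour livers and controls overlapped. Against the own control, *Ephx1* was 1.47-fold higher with sevoflurane and 0.588 of the control with desflurane, on opposite sides of 1. Against the other control, the values were 0.888 with sevoflurane and 0.973 with desflurane. The controls differed 1.65-fold, and only 4.99% of 9750 genes differed more between the controls on the log2 scale. At 6 hours the sevoflurane liver was 1.51-fold above the desflurane liver.

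Ribosomal RNA rows moved with *Ephx1*. One of the 3 genes with the most similar pattern was *LOC257642*, at a distance of 0.110, whose main row overlaps those of *Rn18s* and *Rn45s* on the opposite strand of chromosome 14. Its TPM values were 8896 (control) and 12813 (6 hours) in the sevoflurane pair, and 13796 and 9027 in the desflurane pair. *Rn18s*, the 18S ribosomal RNA, had values of 5139, 13226, 20510.0, and 3800 in the same libraries. The paper states that libraries were made with a kit that includes Ribo-Zero Plus removal of ribosomal RNA. These values are therefore what remained after removal and cannot be read as levels in the liver. The libraries had the same order from lowest to highest for *Ephx1* as for 3 of 4 ribosomal RNA rows examined (*Rn18s*, *Rn28s*, and *Rn45s*). That order was shared by 1.93% of 9136 genes. *LOC257642* did not have it, since its lowest value was in the sevoflurane control and that of *Ephx1* after desflurane. The *Rn18s* row lies within that of *Rn45s*, so the rows are not independent, and they were examined after their values were seen. The part of the ribosomal RNA in the *Ephx1* values was not tested. The nearest genes by pattern were *Rassf7* (0.0636) and *Tsen34l1* (0.0798), with TPM values of 5.68 to 9.14 and 13.6 to 24.0.

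**Figure D3:**
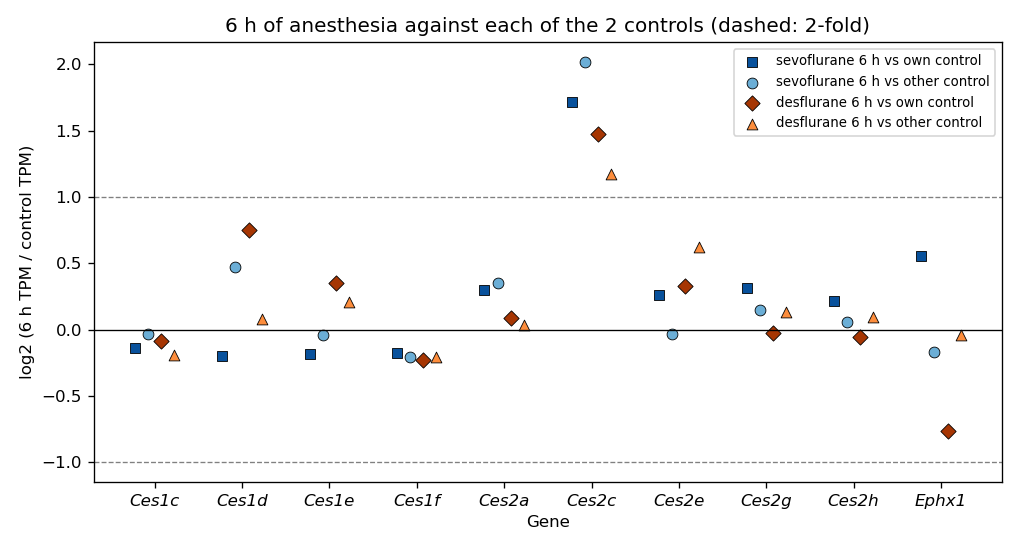
Log2 ratio of the 6 hour TPM value to the control TPM value for each gene, with 1 point for each of the 4 comparisons and dashed lines at 2-fold. *Ces2c* lies above the upper line in all 4 comparisons, whereas the points of *Ephx1* and *Ces1d* spread with the control used.

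The difference between the control livers bears on every gene of the set. Over the 9136 genes that passed a TPM value of 2 in every library, the median absolute log2 difference between the controls was 0.15. *Ephx1* (0.73) and *Ces1d* (-0.67, lower in the desflurane control) lay well outside this value, and *Ces2c* (-0.30) and *Ces2e* (0.30) moderately so. *Ces1f* (0.03) and *Ces2a* (-0.05) were almost equal in the controls. None of the 10 genes differed more than 2-fold between the controls, where 1.17% of genes were higher and 1.17% lower in the desflurane control, or 0.602% and 0.809% of genes with a mean TPM value above 10. For *Ces2c*, the change with either agent was larger than the difference between its controls. The log2 values with sevoflurane and desflurane were 1.72 and 1.47 against the own controls, and 2.02 and 1.17 against the other controls. The controls are single rats given different agents, so their difference does not measure a spread between replicates.

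**Figure D4:**
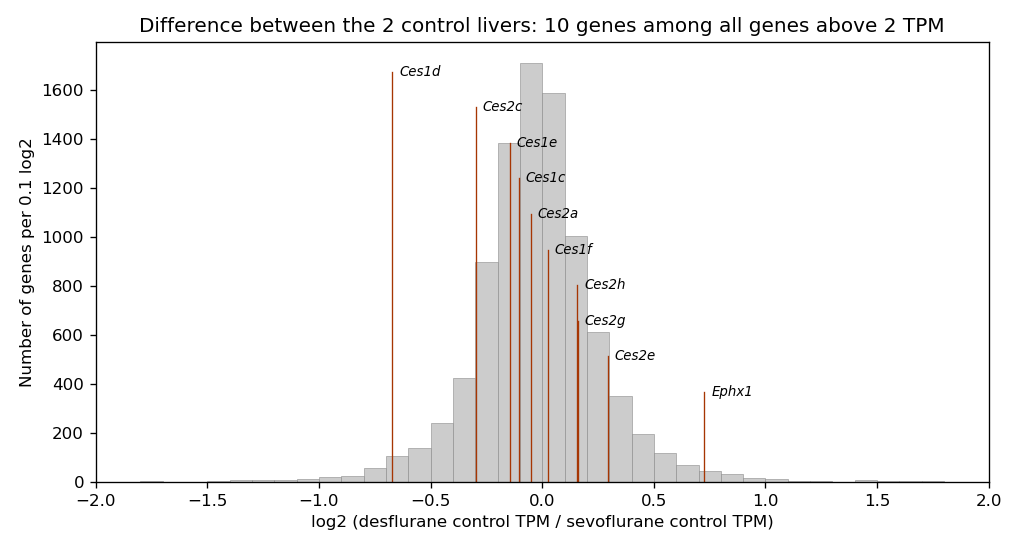
Number of genes (vertical axis, per 0.1 log2) by the log2 ratio of the desflurane control to the sevoflurane control, for the genes that passed a TPM value of 2 in every library, shown from -2 to 2. Lines mark the 10 genes, with *Ces1d* at -0.67 and *Ephx1* at 0.73 on opposite flanks.

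Against the own controls, the 10 genes had a median log2 change of 0.24 (sevoflurane) and 0.03 (desflurane), compared with 0.05 and 0.12 over the 9136 genes. Against the other controls, the medians were 0.01 and 0.09, compared with 0.07 and 0.10. With sevoflurane against its own control, 6 genes were higher and 4 were lower, and with desflurane 5 were higher and 5 lower. Between the 6 hour livers, 7 of the 10 genes were lower with desflurane, by little for *Ces1f* (log2 -0.03) and *Ces1c* (-0.05). The share of all genes that were lower was not counted. The median log2 difference was -0.09 over the 10 genes and 0.06 over the 9136 genes. None of the 10 genes passed the 2-fold limit, where 2.76% of genes passed as higher and 1.17% as lower. Among genes with a mean TPM value above 10, these shares were 1.14% and 0.825%. In this comparison *Ephx1* (0.663 of the sevoflurane value) and *Ces2c* (0.687) were the lowest, and *Ces1e* was the highest at 1.31.

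Related genes were examined as lists. Of 12 other carboxylesterase symbols, 4 were in the files and 2 had TPM values higher than 2. They were *Ces2j*, whose span overlaps that of *Ces2a*, with values of 11.8, 15.5, 11.8, and 14.0 in the order sevoflurane control, sevoflurane, desflurane control, and desflurane, and *Ces4a*, with 5.67, 6.42, 7.34, and 7.67. Neither passed the 2-fold limit. Of 4 other epoxide hydrolase genes, none passed. *Ephx2*, the soluble epoxide hydrolase that acts on fatty acid epoxides, had TPM values of 49.4, 63.7, 43.8, and 81.7, with fold changes of 1.29 for sevoflurane and 1.87 for desflurane against the own controls. Unlike those of *Ephx1*, both 6 hour values of *Ephx2* were above both control values, as they were for 33.3% of 9993 genes. *Lta4h*, the leukotriene A4 hydrolase, stayed between 22.4 and 25.1.

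Among 11 other esterase genes, *Nceh1*, a cholesteryl ester hydrolase of the endoplasmic reticulum, passed upward in all 4 comparisons. Its TPM values were 19.8, 49.6, 10.9, and 46.9. *Esd*, the S-formylglutathione hydrolase, passed downward with desflurane against both controls, with 107, 114, 94.0, and 16.4. The most abundant genes of this list, the paraoxonases *Pon1* and *Pon3*, were 0.804 and 0.724 of the own control with sevoflurane and 1.02-fold and 1.01-fold with desflurane. Of 14 genes of neutral lipid hydrolysis and lipid droplets, sevoflurane upregulated 2 and downregulated 2 and desflurane upregulated 3 and downregulated 1 against the own controls. Over all genes, 2.23% passed upward and 3.3% downward with sevoflurane, and 2.79% and 1.48% with desflurane. *Pnpla2*, which encodes the adipose triglyceride lipase, had TPM values of 26.0, 44.4, 21.8, and 61.0, and *Plin2*, a lipid droplet coat protein gene, had 107, 208, 134, and 276. Both 6 hour livers were above both controls for these genes, as they were for 33.3% of 9993 genes. *G0s2*, an inhibitor of the lipase encoded by *Pnpla2*, passed upward with sevoflurane against its own control (3.0-fold). *Lipe* passed with desflurane against its own control (2.46-fold) but not against the other control (1.98-fold). With sevoflurane, *Lipe* passed against the other control alone (2.21-fold). *Plin5* passed with sevoflurane against its own control (2.41-fold) but reached only 2.88 TPM and was 1.69-fold above the other control, which did not pass. *Pnpla3* was downregulated with both agents against the own controls. Its TPM values were 2.74, 1.02, 11.7, and 2.29, in the order sevoflurane control, sevoflurane, desflurane control, and desflurane. Its controls thus differed 4.29-fold, and desflurane was 0.837 of the sevoflurane control, which did not pass. *Abhd5*, the activator of the lipase, was downregulated with sevoflurane against its own control alone (0.480 of the control). *Lipc*, the most abundant of the list, stayed between 179 and 232.

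Of 21 listed targets of CAR and PXR, chosen with earlier results of these data known, 20 were in the files. Sevoflurane upregulated 8 of them and desflurane 7 against the own controls, and the counts were 8 and 7 against the other controls. Over all genes, 2.23% and 2.79% passed upward against the own controls and 2.52% and 2.84% against the other controls. Downward, 3.3% and 1.48% of all genes passed against the own controls. In all 4 comparisons, 6 were upregulated, where 0.49% of 9993 genes were. These were *Cyp2b1*, *Cyp2b2*, *Por*, *Alas1*, *Abcb1a*, and *Gadd45b*. Their fold changes against the own control ran from 2.33 for *Abcb1a* to 91.8 for *Cyp2b1* with sevoflurane. With desflurane they ran from 2.83 for *Abcb1a* to 67.9 for *Cyp2b1*. *Ces2c* (3.29 and 2.78) passed the same limits as these 6 genes, so its place in or near these ranges carries no weight. Of the 19 listed targets with a TPM value higher than 2 in any library, 13 were higher and 6 lower with each agent against its own control. *Cyp3a23/3a1* passed in 3 comparisons, *Abcc3* in 2, and *Ugt1a1* in 1. *Cyp3a2* and *Gstm1*, the most abundant of the list, passed in none. *Cyp2b1* and *Cyp2b2* are close paralogs whose separate values are uncertain. From the same libraries, the paper lists *Cyp2b1*, *Cyp2b2*, *Por*, *Alas1*, and *Gadd45b* as activated by both agents, so their count here is not independent of it. The paper also reports *Cyp2b1*, *Por*, and *Alas1* as significantly activated by both agents in quantitative PCR with replicate rats. Of 14 NRF2 target genes, sevoflurane upregulated 1 and downregulated 2 and desflurane downregulated 2 against the own controls. *Osgin1* was downregulated in all 4 comparisons, with TPM values of 156, 76.4, 220.3, and 72.3, and *Gclm*, a subunit of glutamate cysteine ligase, in 3. *Slc7a11* passed upward with sevoflurane but reached only 2.81 TPM, and *Srxn1* passed upward with sevoflurane against the other control alone (2.04-fold). *Ugt1a6*, the most abundant of the list, had TPM values of 268, 468, 268, and 328 and passed in none.

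**Figure D5:**
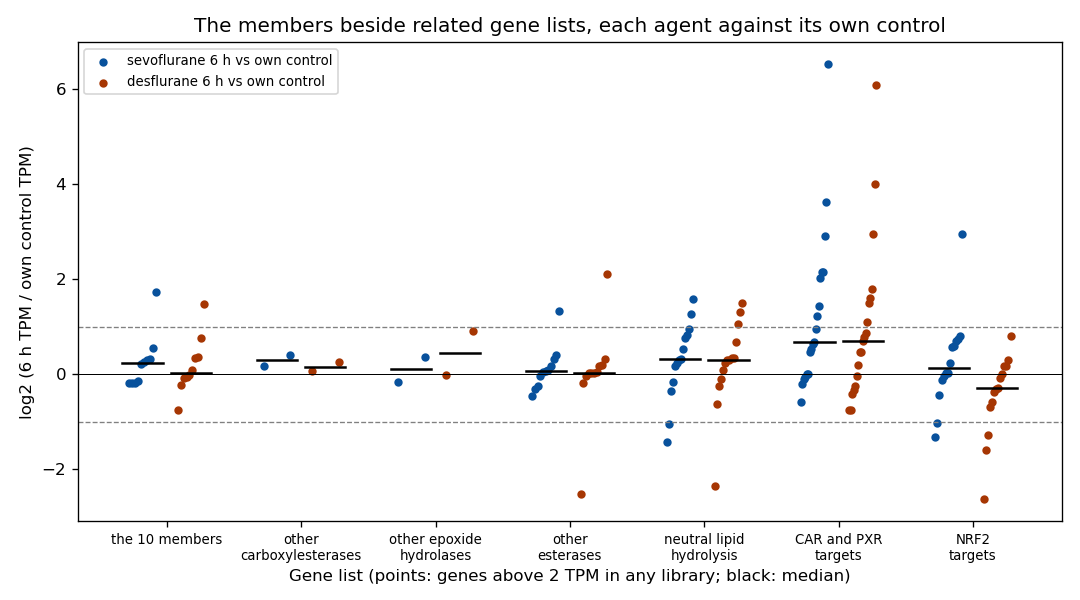
Log2 ratio of the 6 hour TPM value to that of the own control for the 10 genes and for related lists, with 1 point per gene with a TPM value higher than 2 in any library, black bars at the medians, and dashed lines at 2-fold. The medians of the 10 genes are 0.24 with sevoflurane and 0.03 with desflurane, and those of the CAR and PXR targets are 0.67 and 0.69.

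Markers of hepatocytes were present in all libraries, with 9 of 9 genes found, *Alb* and *Tf* highest, and *Alb* between 77519 and 92912 TPM. Summed TPM values over the 9 pancreatic acinar markers were 43.7 in the sevoflurane control and between 0.521 and 3.33 in the other libraries, where 4 to 6 of these markers, *Prss1* and *Ctrb1* among them, were at 0. The 9 macrophage markers summed to 665 in the sevoflurane control, 426 after sevoflurane, 518 in the desflurane control, and 631 after desflurane, and the 9 lymphocyte markers to 44.7, 26.4, 38.2, and 41.3. Summed values ranged from 260 to 294 for endothelial, 316 to 352 for stellate and fibroblast, 14.5 to 21.4 for cholangiocyte, 418 to 527 for intestinal, and 48.6 to 115 for erythroid markers. The most abundant markers were *Ctrb1* and *Cpb1* (acinar), *C1qc* and *Clec4f* (macrophage), *Cd4* and *Ptprc* (lymphocyte), *Fcgr2b* and *Kdr* (endothelial), *Col3a1* and *Col1a2* (stellate and fibroblast), *Epcam* and *Spp1* (cholangiocyte), *Apoa4* and *Fabp2* (intestinal), and *Hba1* and *Hba-a2* (erythroid). Most of the intestinal sum was *Apoa4*, which the liver also expresses. None of these sums separated both 6 hour livers from both controls by more than 2-fold. Without regard to size, the intestinal and the stellate and fibroblast sums were higher in both 6 hour livers than in both controls, and the erythroid sum was lower in both. Their part in the values of the 10 genes was not tested. In bulk tissue, fewer cells of a type and less RNA per cell cannot be told apart.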

How the data were processed

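RNA-seq data of 4 rat livers, 1 per condition as given by the labels, were used. The paper states that libraries were made from total RNA with a stranded kit that includes Ribo-Zero Plus removal of ribosomal RNA. Reads were trimmed with sickle, mapped to rn6 with HISAT2 at default parameters, and sorted with SAMtools, as the paper reports. They were quantified by StringTie with the refGene annotation of rn6. The average coverage per base in the deposited tables is a signal that is not scaled to library size. The deposited FPKM values are scaled to it by StringTie. The deposited TPM values are a signal scaled so that assembled rows add up to 1000000, with annotated rows on the same scale beside them. Assembled rows were not used in the main values. Strand-specific counting is not stated in the sources used here.

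Annotated rows longer than 200 bp were kept, TPM values were summed per gene symbol, and folds were calculated without a pseudocount. Aligned sequence per library, estimated by dividing coverage by FPKM, came to between 4.47 and 5.40 Gb. *Ephx1* alone among the 10 genes had a ratio of FPKM to coverage more than 1% off the library median, by a factor of 1.08 to 1.09. Genes listed in fewer than 4 tables were left out. No test was made with 1 library per group. The genes and lists were chosen with earlier results of these data known. Named genes are the 10 members, genes of the related lists past the limits in any comparison with a control, the 2 most abundant genes of each related and marker list, and the 3 nearest patterns to *Ces2c*, *Ephx1*, and *Ces1c*. Rows beside or overlapping the members, ribosomal RNA, and *Prss1* were named outside this rule, after their values were seen. Protein sequences were not analysed here. Alternatives covered the limits, pseudocount, scaling, unit, rows, and control. The script that applies the limits was tested on simulated data, which bears on the code and not on the calls made. Calculations used Python 3.11.15, numpy 2.4.6, and pandas 2.3.3.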

Additional observations from a re-analysis of the deposited data

Results flagged for a closer look

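Of the 10 genes, 5 moved in opposite directions with the 2 agents against their own controls, and these differences were not tested because each state has 1 library. The log2 change with desflurane minus that with sevoflurane was -1.32 for *Ephx1*, 0.95 for *Ces1d*, 0.54 for *Ces1e*, -0.34 for *Ces2g*, and -0.27 for *Ces2h*. None of the separate changes passed the 2-fold limit. The share of all genes that moved in opposite directions was not counted, so the count is not a trait of the set. The desflurane changes of *Ces2g* (-0.03) and *Ces2h* (-0.06) were small, and both changed sign against the mean of both controls. Against the control of the other agent, the changes with sevoflurane and desflurane had the same sign for *Ephx1* (-0.17 and -0.04), *Ces1d* (0.47 and 0.08), *Ces2g* (0.15 and 0.13), and *Ces2h* (0.06 and 0.10), and opposite signs for *Ces1e* (-0.04 and 0.21). After median-of-ratios scaling, the changes of *Ces2h* against the other control were -0.02 and -0.01, and those of *Ces1d* were 0.40 and -0.02.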

How the results depend on the processing

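Each of 11 alternatives was applied to the 4 comparisons. *Ces2c* was at least 1.89-fold higher in all of them, with the lowest values against the sevoflurane control for desflurane. With a 1.5-fold limit, desflurane upregulated 2 genes (*Ces1d* and *Ces2c*) and downregulated 1 (*Ephx1*) against its own control, and upregulated 2 (*Ces2c* and *Ces2e*) against the other control. With FPKM, desflurane upregulated 0 genes against the other control, with a median log2 change of -0.16. With assembled rows added, desflurane downregulated 2 genes (*Ces1d* and *Ces1e*) against its own control with a median of -0.12 and upregulated 0 against the other control; these rows hold the reads of the annotated rows again and in some libraries join *Ces1d* to *Ces1c*. The other counts and medians stayed within 1.5 times or within 0.15 (log2), the median absolute difference between the controls. Median-of-ratios scaling lowered log2 changes by 0.05 to 0.13 and changed the sign of 5 of the 40 changes (*Ces1d*, *Ces2a*, and *Ces2h*). FPKM changed the sign of 8 (*Ces1c*, *Ces1d*, *Ces1e*, *Ces2a*, *Ces2e*, *Ces2g*, and *Ces2h*, all against the other control), assembled rows of 8 (*Ces1c*, *Ces1d*, and *Ces1e*), the mean of both controls of 5 (*Ces1d*, *Ces2e*, *Ces2g*, *Ces2h*, and *Ephx1*), and rescaling of annotated rows of 1 (*Ces2a*). None of these changes had passed the 2-fold limit, and the sign of *Ces2c* and *Ces1f* changed under none of the 11 alternatives. Counting error of single values is not known without read counts. No paired analysis was possible because each group has 1 sample.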

Other observations

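Some rows that StringTie assembled lie on the strand opposite to the Ces1 genes. Within the span of *Ces1d*, 3 such rows were present in the sevoflurane control, with a summed TPM of 39.0, and 3 after 6 hours of sevoflurane, with 37.3, whereas neither desflurane library had any. Within the span of *Ces1c*, 1 such row was present in each library, with TPM values of 8.47, 6.01, 6.15, and 3.40 in the order sevoflurane control, sevoflurane, desflurane control, and desflurane. *Ces1e*, whose span overlaps that of *Ces1d*, had 4 such rows in the sevoflurane control and 3 after sevoflurane. In the sevoflurane control, the row with 1.12 TPM lay outside the span of *Ces1d*. The other members had none. The sources used here do not state that strand was used in assembly.

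*LOC291863*, an annotated row that spans *Ces1f*, *Ces1e*, and *Ces1d* in rn6, had TPM values of 372, 319, 236, and 391 in the same order, and the desflurane control was lowest as for *Ces1d*. The genes nearest in pattern to *Ces1c*, the most abundant carboxylesterase, were *Ttc17* (0.0121), *Cyp20a1* (0.0123), and *Arf5* (0.0231), and *Ces1c* itself was only 0.142 from a flat profile on this log2 distance.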
